A study of Mus musculus with 18 samples.

Results

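Heat shock proteins and their DnaJ partners were followed in lung epithelium of mice lacking the long non-coding RNA Falcor, mice with 1 copy of Foxa2, and mice with 1 copy of each. Members were all genes whose symbol begins with Hspa, Hspb, Hspd, Hspe or Hsph and a number, with Hsp90, or with Dnaja, Dnajb or Dnajc and a number. Of 15544 genes in the files 62 were members, and 1 pseudogene that met the rule, Hspd1-ps3, was left out. All 62 members had a mean of at least 6 log2 units over the 18 libraries and were tested, among 15249 genes tested in all. By the place and role of their proteins they fell into 12 stress-induced cytosolic genes, 8 constitutive cytosolic genes, 14 of the endoplasmic reticulum (ER), 10 of mitochondria and 18 others. The others were 3 small heat shock proteins, 2 distant Hsp70 relatives, 4 DnaJ proteins of membrane traffic, 7 nuclear, ribosome-bound or otherwise specialised DnaJ proteins and 2 of testis and cilia.

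Hsp70 and Hsp90 are chaperones that bind and release other proteins in cycles of ATP hydrolysis. DnaJ proteins, also called Hsp40, deliver clients to Hsp70 and set off its ATP hydrolysis. In the cytosol heat and other damage free heat shock factor 1, which binds heat shock elements in promoters and raises a subset of these genes within minutes. The ER has its own sensors, which raise Hspa5 and its partners through ER stress elements, and mitochondria hold a further set. Enzymatic or mechanical dissociation of tissue is known to raise the cytosolic set.

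RNA was sequenced from cells that magnetic beads had captured by EpCAM, a surface protein of epithelium, from lungs of mice 10 to 12 weeks old. Wild type supplied 5 libraries (replicates 1 to 5), Falcor-/- supplied 5 (replicates 6 to 10), Foxa2+/- supplied 4 (replicates 11 to 14), and the double heterozygote Falcor+/-;Foxa2+/- supplied 4 (replicates 15 to 18). The sources used here do not give how the alleles were made, the sex of the mice or whether each library came from its own animal, so p-values measure the spread between these libraries, which may be technical. Foxa2 is a transcription factor of lung epithelium, and Falcor is transcribed beside it.

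The values are log2 levels on a scale shared by all libraries, and whether they are per gene length is not given, so they compare a gene between libraries and not genes with each other. The depth behind them is unknown. Foxa2 followed its labels, and Falcor did so in Falcor-/- but not in the double heterozygote. The transcript 9030622O22Rik, which is Falcor, differed by -3.98 in Falcor-/- from wild type, which passed the test. Foxa2 differed from wild type by -0.57 in Foxa2+/- (limma adjusted p = 0.00245) and -0.60 in the double heterozygote (limma adjusted p = 0.000891). In Falcor-/- the Foxa2 difference of -0.23 did not pass (limma adjusted p = 0.115). Falcor was 1.52 higher than in wild type in Foxa2+/- and 1.48 higher in the double heterozygote, which is labelled with 1 copy of Falcor. Both differences passed the test. The surfactant gene Sftpc stood at or near the top of the scale, and Epcam had mean levels of 13.89 to 14.19 over the 4 genotypes and passed the test in no comparison. Of 8 epithelial genes, Epcam among them, 3 were called higher than in wild type in Falcor-/- (median difference 0.30). In Foxa2+/- 2 were called higher (0.15) and in the double heterozygote 1 (0.27). Of all genes 5.23%, 1.96% and 7.21% were called higher in these comparisons. Of 12 macrophage genes 6 were called lower in Falcor-/-, 0 in Foxa2+/- (0 also at an unadjusted p under 0.05) and 6 in the double heterozygote. Of all genes 4.24%, 4.15% and 7.57% were called lower there. The macrophage list was split in direction. Of the 12 differences from wild type, 5 were positive in Falcor-/- (up to 0.66), 6 in Foxa2+/- and 3 in the double heterozygote (up to 0.72). The mean over the 12 genes ran from 11.64 to 12.57 in wild type and 9.70 to 12.30 in Falcor-/-. It ran from 11.88 to 12.16 in Foxa2+/- and 10.14 to 11.44 in the double heterozygote. Falcor-/- and the double heterozygote are also the genotypes in which Dnajc17, Dnajc30, Hsf4 and Trap1 were called higher below, and the part of macrophages in those results was not tested. Endothelial markers were present: the mean over 18 endothelial genes ran from 11.68 to 13.23 in wild type, 11.26 to 13.06 in Falcor-/-, 10.57 to 11.06 in Foxa2+/- and 10.05 to 10.65 in the double heterozygote. In such bulk samples fewer cells of a type and less RNA per cell cannot be told apart.

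Promoter stretches are shown for 8 members as examples of the heat shock element (5 members, Hspe1 of mitochondria among them) and the ER stress element (3 ER members). The window ran from 250 bases before to 50 after the RefSeq start (GRCm38.p6), both strands were searched, and 49 of the 62 members had a window. A heat shock element was searched as GAANNTTC or TTCNNGAA, and an ER stress element as CCAAT and CCACG with any 9 bases between them. Capitals mark the match, each stretch reads 5′ to 3′ on the gene's strand, and overlapping matches run together. Hsph1 held 3 matches in its window, and 1 is shown. Hspa1a and Hspa1b encode the inducible Hsp70, Hsph1 its nucleotide exchange factor Hsp110, Hspb1 a small heat shock protein, Hspe1 the mitochondrial co-chaperonin, Hspa5 the ER Hsp70 BiP, Hsp90b1 the ER Hsp90 and Dnajc3 an ER DnaJ protein.
Hspa1a, chr17:34972243-34972270, minus strand: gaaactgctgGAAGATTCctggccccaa
Hspa1b, chr17:34959325-34959352, minus strand: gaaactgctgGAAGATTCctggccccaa
Hsph1, chr5:149636352-149636379, minus strand: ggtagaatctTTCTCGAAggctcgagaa
Hspb1, chr5:135887792-135887839, plus strand: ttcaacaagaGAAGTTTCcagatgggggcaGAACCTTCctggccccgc
Hspe1, chr1:55088049-55088086, plus strand: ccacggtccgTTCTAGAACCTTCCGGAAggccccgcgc
Hspa5, chr2:34772015-34772053, plus strand: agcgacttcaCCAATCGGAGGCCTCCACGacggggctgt
Hsp90b1, chr10:86705523-86705666, minus strand: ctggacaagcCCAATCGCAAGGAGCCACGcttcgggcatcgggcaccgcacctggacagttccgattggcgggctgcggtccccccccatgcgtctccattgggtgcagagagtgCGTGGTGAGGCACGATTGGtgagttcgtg
Dnajc3, chr14:118937817-118937855, plus strand: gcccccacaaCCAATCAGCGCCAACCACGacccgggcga

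The heat shock element stood in 8 of 10 stress-induced members with a window, in 1 of 7 constitutive members (Dnajb6), in 1 of 12 ER members (Dnajc10) and in 2 of 7 mitochondrial members, against 4587 of all 27025 genes in the table. Its longer form, GAANNTTC followed by NNGAA or TTCNNGAA followed by NNTTC, stood in Hsph1, Hspd1, Hspe1 and Dnajb6, and in 0.662% of all genes. The ER stress element stood in 3 of 12 ER members, in no member outside the ER group, and in 0.137% of all genes. Dnajb1 and Hspa4l had no match to the heat shock element in this window. The printed stretches of Hspa1a and Hspa1b are the same, their 250 bases before the start are 98.8% identical and their coding sequences 99.4% identical. Reads of these genes can therefore be split or shared by the counting, and their separate levels are uncertain.

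**Figure D1:**
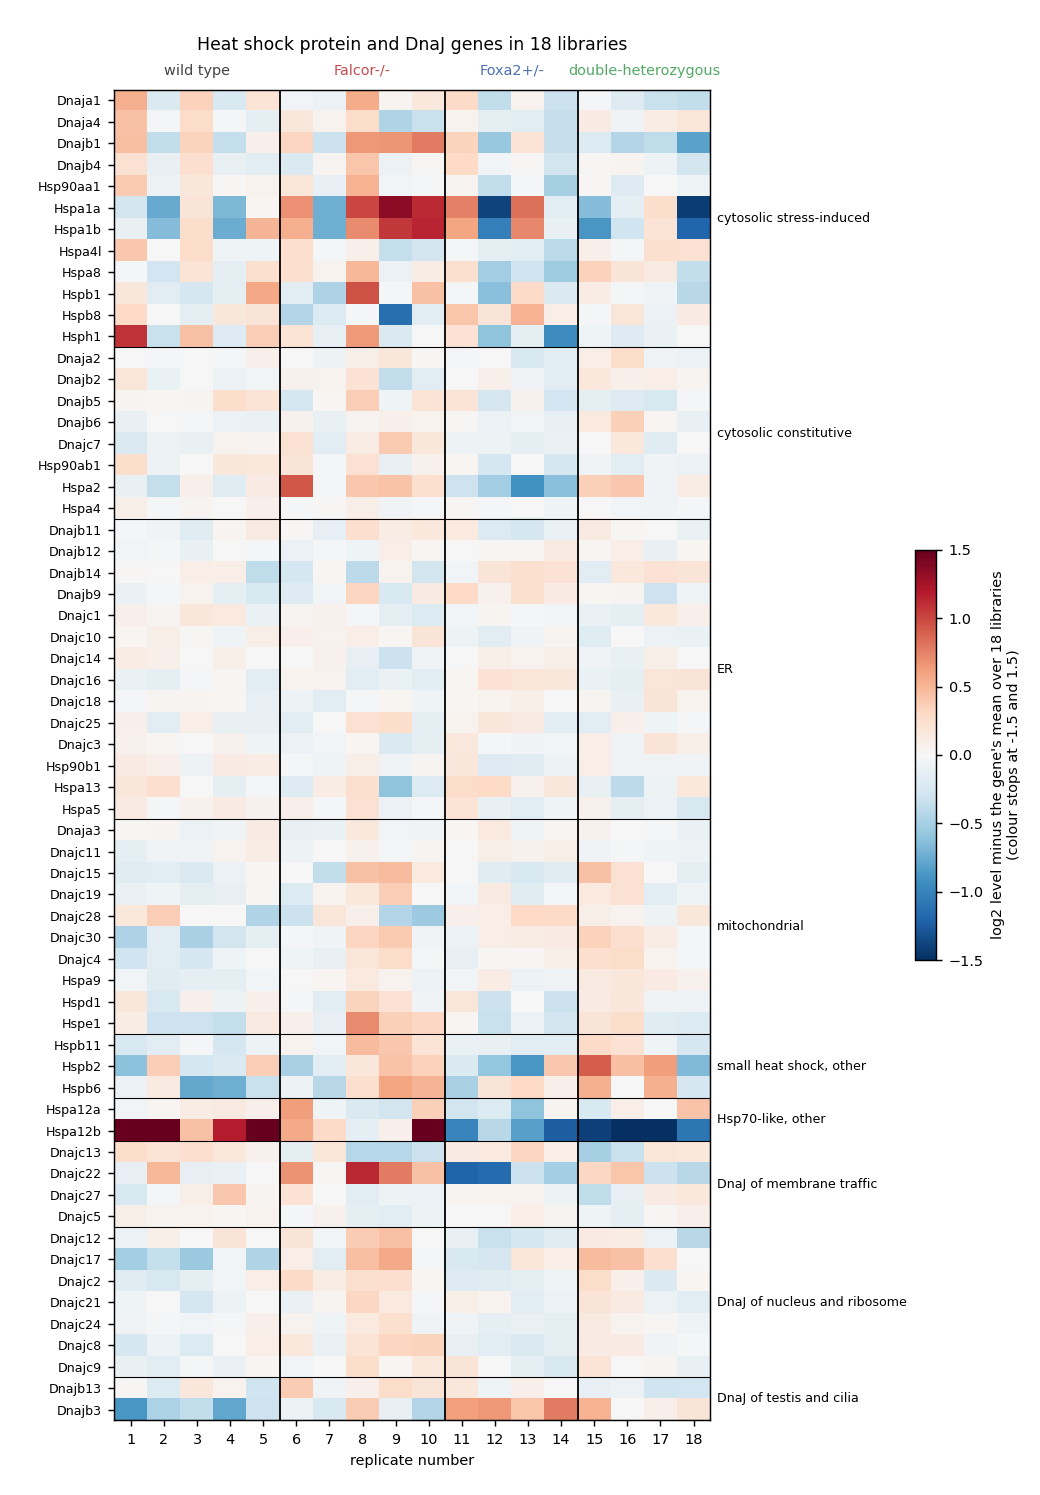
Heat map of the 62 members (rows, ordered by role) in 18 libraries (columns, by replicate number within genotype); colour is the log2 level minus that gene's mean over the 18 libraries, with the scale stopping at -1.5 and 1.5. The Hspa1a and Hspa1b rows vary within each genotype, the ER rows stay near 0, and Hspa12b is low in every Foxa2+/- and double-heterozygous library.

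The stress-induced cytosolic genes differed more between libraries of the same genotype than the other large groups did. The SD between libraries within genotype, pooled over the 4 genotypes, had a median of 0.279 over the 12 stress-induced genes, 0.136 over the 8 constitutive genes, 0.114 over the 14 ER genes and 0.163 over the 10 mitochondrial genes, beside 0.209 over all genes tested. It was 0.764 for Hspa1a, larger than in 96.2% of genes tested, and 0.685 for Hspa1b, larger than in 95.3%. Hsph1 (0.426), Hspb1 (0.404) and Dnajb1 (0.390), a DnaJ partner of inducible Hsp70, came next within the group. The steadiest member was Hspa4, a constitutive Hsp110 relative, with 0.042, and 0.105% of genes tested were steadier.

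**Figure D2:**
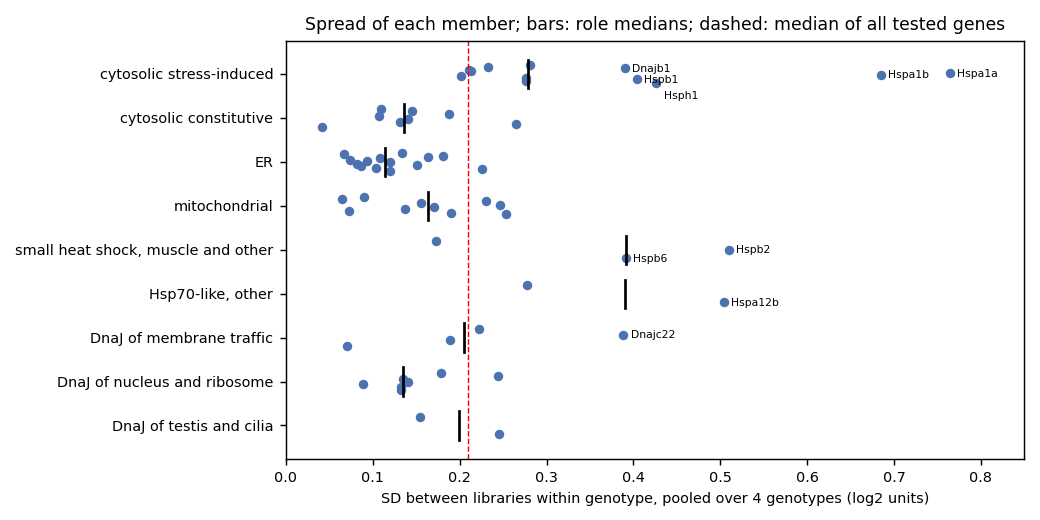
SD between libraries within genotype, pooled over the 4 genotypes (x axis, log2 units), for each member (points) by role (rows); black bars are role medians and the dashed line is the median of all tested genes, 0.209. Hspa1a and Hspa1b lie farthest right, and every ER member but 1 lies left of the dashed line.

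Calls among members were set beside the share of all genes called, and the difference between these shares was not tested. A call is an adjusted p under 0.05 in limma over all 15249 genes. Against wild type, 4 of 62 (6.45%) were called in Falcor-/-, all higher, beside 9.47% of all genes (5.23% higher and 4.24% lower). In Foxa2+/- 2 were called (3.23%), 1 higher and 1 lower, beside 6.11% (1.96% and 4.15%). In the double heterozygote 5 were called (8.06%), 4 higher and 1 lower, beside 14.8% (7.21% and 7.57%). These 3 comparisons share the wild-type libraries.

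Between mutants, Falcor-/- against Foxa2+/- gave 9 calls (14.5%), 7 higher and 2 lower, beside 16.7% of all genes (8.56% and 8.1%). The double heterozygote gave 1 call against Foxa2+/- (1.61%), higher, beside 2.43% (1.06% higher and 1.37% lower), and 3 calls against Falcor-/- (4.84%), all lower, beside 5.15% (2.15% higher and 3.0% lower). In all 14 members were called at least once and 48 in no comparison. The count for Falcor-/- against wild type moved with single libraries. It was 19 members without Falcor-/- replicate 7, beside 25.7% of all genes. It was 0 without any 1 of wild-type replicates 1 and 2 and Falcor-/- replicates 8 and 9, beside 2.32% to 3.43% of all genes. With only these 2 genotypes in the fit it was 0, beside 3.17% of all genes.

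Hspa1a stood at 14.01, 13.53, 14.47, 13.61 and 14.31 in wild type and at 14.96, 13.55, 15.28, 15.62 and 15.40 in Falcor-/-. It stood at 15.03, 12.89, 15.11 and 14.12 in Foxa2+/- and at 13.63, 14.14, 14.55 and 12.86 in the double heterozygote. In Falcor-/- 4 libraries lay above every wild-type library and replicate 7 lay with the lowest of them, while Foxa2+/- replicates 11 and 13 were high and replicate 12 was low. Every pair of genotypes overlapped. Hspa1a was 0.98 ± 0.44 (SE) higher in Falcor-/- than in wild type, which did not pass the test (limma adjusted p = 0.13, exact permutation p = 0.0476, both 2-sided). Without Falcor-/- replicate 7 the difference was 1.33 and passed (limma adjusted p = 0.0264), and over all single omissions the adjusted p ran from 0.0264 to 0.27.

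Dnajb1, which starts ATP hydrolysis by inducible Hsp70, was lowest in the same library as Hspa1a in each genotype. It stood at 13.68, 12.87, 13.57, 12.88 and 13.31 in wild type and at 13.56, 12.91, 13.88, 13.90 and 14.02 in Falcor-/-. It stood at 13.57, 12.67, 13.44 and 12.89 in Foxa2+/- and at 13.03, 12.80, 12.85 and 12.44 in the double heterozygote. There Dnajb1 was highest in replicate 15, and Hspa1a was not. All 4 double-heterozygous libraries were below the Falcor-/- mean, and the groups overlapped only through Falcor-/- replicate 7. Dnajb1 was 0.87 ± 0.24 lower in the double heterozygote than in Falcor-/- (limma adjusted p = 0.0432, exact permutation p = 0.0238). The call was lost when any 1 of Falcor-/- replicates 6, 8, 9 and 10 or double-heterozygous replicates 15 to 18 was left out (differences -0.96 to -0.76, adjusted p up to 0.122), without the intensity trend (adjusted p = 0.0543) and with only these 2 genotypes in the fit (0.0706). Without Falcor-/- replicate 7 it was 1.06 lower (adjusted p = 0.00935).

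**Figure D3:**
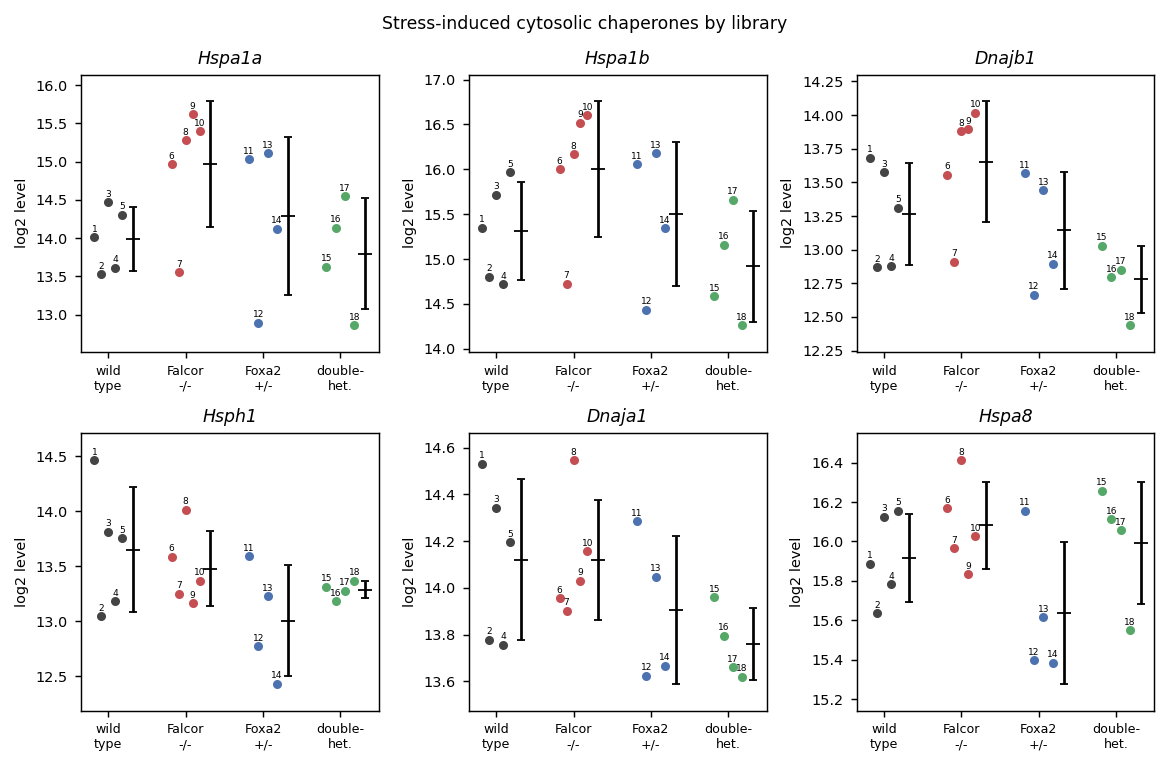
Log2 level (y axis) of 6 stress-induced cytosolic members in each library, by genotype (x axis); points carry replicate numbers, and bars are the mean ± SD of the genotype. Wild-type replicates 2 and 4, Falcor-/- replicate 7, Foxa2+/- replicate 12 and double-heterozygous replicate 18 lie low for Hspa1a, Hspa1b and Dnajb1, and all genotypes overlap for Hspa1a.

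No stress-induced member passed the test against wild type in any of the 3 mutant genotypes (limma), where 2 (Falcor-/-), 3 (Foxa2+/-) and 0 (double heterozygote) of the 12 had an unadjusted p under 0.05. Between Falcor-/- and Foxa2+/- 11 of the 12 differences were positive, with a median of 0.31 beside 0.00 over all genes. The 1 call, beside 16.7% of all genes, was in the other direction. That gene was Hspb8, which works with Bag3 in clearing misfolded protein. Hspb8 stood at 11.70, 11.93, 12.12, 11.00 and 11.98 in Falcor-/- and at 12.55, 12.33, 12.66 and 12.23 in Foxa2+/-, with no overlap, a difference of -0.70 ± 0.17 (limma adjusted p = 0.0157, exact permutation p = 0.0159). Falcor-/- replicate 9 was the low library. The call was lost without Foxa2+/- replicate 13 (-0.63, adjusted p = 0.0624) and with only these 2 genotypes in the fit (adjusted p = 0.0615). In the same comparison Dnajb1 passed as higher in Falcor-/- with library weights (0.68, limma adjusted p = 0.0401). It also passed without Falcor-/- replicate 7 (0.70, limma adjusted p = 0.0239).

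Hsph1, Hspa8 (the constitutive Hsp70 that stress also raises), Hsp90aa1 (inducible Hsp90), Dnaja1 (another DnaJ partner of Hsp70) and Hspb1 passed in no comparison with all libraries weighted equally. Hsph1 stood at 14.46, 13.05, 13.82, 13.18 and 13.75 in wild type and at 13.59, 12.77, 13.23 and 12.43 in Foxa2+/-, where it was 0.65 ± 0.26 lower (limma adjusted p = 0.175). Wild-type replicate 1 was the highest of the 18 libraries for Hsph1 and Hsp90aa1 was high there too, at 15.49, beside 15.02 to 15.27 in the other wild-type libraries. Hspa8 differed by 0.44 ± 0.17 between Falcor-/- and Foxa2+/- (adjusted p = 0.0805, and 0.0233 without Foxa2+/- replicate 11, where the difference was 0.62). With library weights Hspa8 passed there (0.49, adjusted p = 0.0349) and in the double heterozygote against Foxa2+/- (0.52, adjusted p = 0.0457), and Hsp90aa1 in Foxa2+/- against wild type (-0.38, adjusted p = 0.0469). Without Falcor-/- replicate 7, Dnajb1 (0.58, adjusted p = 0.0487), Hspa1b (1.01, adjusted p = 0.049) and Hspb8 (-0.54, adjusted p = 0.0335) also passed in Falcor-/- against wild type, and Hspa1a (-1.52, adjusted p = 0.0384) and Hspa1b (-1.40, adjusted p = 0.0343) in the double heterozygote against Falcor-/-. Hspb1 ran from 12.78 to 13.61 in wild type, 12.57 to 13.98 in Falcor-/-, 12.41 to 13.32 in Foxa2+/- and 12.62 to 13.14 in the double heterozygote.

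Co-variation was measured against Dnajb1 after each genotype's mean was removed, over 18 libraries and 29 partners, the 11 other stress-induced members and 18 immediate early genes. Immediate early genes such as Fos and Jun respond to many stimuli, tissue dissociation among them. Hspa1a followed Dnajb1 with r = 0.85 and rho = 0.78 (permutation p = 0.00035 and 0.00134, adjusted over the 29 partners 0.00957 and 0.0194). Hspa1b had r = 0.83 and rho = 0.71 (permutation p = 0.00066 and 0.00447, adjusted 0.00957 and 0.0432), and Dnaja1 had r = 0.83 and rho = 0.85 (permutation p = 0.00111 and 0.00103, adjusted 0.0107 and 0.0194). These were the 3 partners past the threshold, and 8 of the 11 stress-induced partners had an unadjusted p under 0.05. Hspb1 (r = 0.66), Hsph1 (0.66), Hsp90aa1 (0.64), Hspa8 (0.61) and Dnajb4 (0.55) did not pass.

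Of the 18 immediate early genes none passed by the same permutation test, 3 had an unadjusted p under 0.05, and r ran from -0.12 to 0.67. The highest was Jun (r = 0.67, rho = 0.69, permutation p = 0.0101 and 0.00736, adjusted 0.0565 and 0.0534). The 2 libraries farthest from the middle for Dnajb1 were Falcor-/- replicate 7 and Foxa2+/- replicate 12. Without them Hspa1a had r = 0.72 (adjusted permutation p = 0.0654) and Hspa1b r = 0.68 (adjusted permutation p = 0.116), and neither passed. Leaving out the libraries most extreme for Dnajb1 narrows its range, so this loss does not settle whether the relations rest on those libraries. Dnaja1 had r = 0.86 (adjusted permutation p = 0.022) without them, but its rank correlation no longer passed (rho = 0.79, adjusted permutation p = 0.135). Leaving out single libraries kept r between 0.78 and 0.89 for Hspa1a, 0.76 and 0.89 for Hspa1b, and 0.81 and 0.87 for Dnaja1. All 3 passed in all 18 runs. Jun and Hspb1 passed in 3 of these runs each. Hsph1, Hsp90aa1, Hspa8 and the immediate early gene Btg2 passed in 1 each. No batch is named in the labels.

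**Figure D4:**
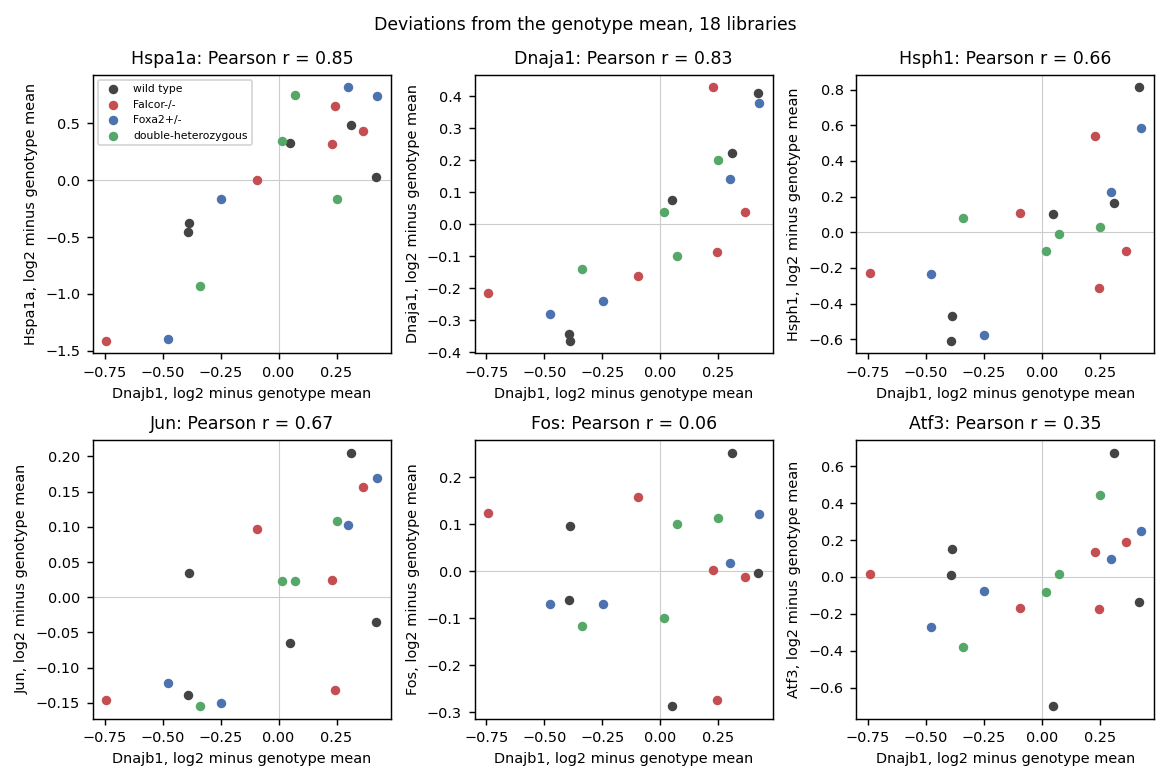
Deviation of 6 genes from their genotype mean (y axes, log2 units) against that of Dnajb1 (x axes, log2 units), 1 point per library coloured by genotype, with Pearson r above each panel. Hspa1a and Dnaja1 rise with Dnajb1 (r = 0.85 and 0.83), Hsph1 and Jun less closely (0.66 and 0.67), and Fos does not line up with it (0.06).

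None of the 14 ER members passed the test in any of the 6 comparisons (limma), where 2.43% to 16.7% of all genes were called. Between 1 and 5 of the 14 had an unadjusted p under 0.05, and the smallest adjusted p was 0.0632. Other fits called some of them in Falcor-/- against Foxa2+/-: Dnajb14, Dnajc10, Dnajc16 and Hspa13 with library weights, Dnajb14, Dnajc14 and Dnajc16 without Falcor-/- replicate 7, Dnajb11 and Dnajb14 without Foxa2+/- replicate 11, and Hspa13 without Falcor-/- replicate 8. Against wild type Dnajc14 was called in Falcor-/- without Falcor-/- replicate 7, and Dnajc16 in Foxa2+/- with library weights or with only these 2 genotypes in the fit. Hspa5, the master chaperone of the ER, stood at 15.93, 15.79, 15.88, 15.93 and 15.88 in wild type and at 15.87, 15.66, 15.72 and 15.56 in the double heterozygote. All 4 double-heterozygous libraries were below the wild-type mean, the groups overlapped, and the difference of -0.18 ± 0.08 did not pass (adjusted p = 0.17, interval -0.35 to 0.00). The largest spread among ER members was that of Hspa13, an Hsp70 relative of the microsomes, with a pooled SD of 0.226.

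Dnajb9, an ER DnaJ protein raised by the unfolded protein response, had means of 12.48 ± 0.109 (SD, n = 5) in wild type, 12.56 ± 0.232 (n = 5) in Falcor-/-, 12.74 ± 0.106 (n = 4) in Foxa2+/- and 12.49 ± 0.164 (n = 4) in the double heterozygote. Its Foxa2+/- libraries did not overlap with wild type, yet the difference of 0.27 ± 0.11 did not pass (limma adjusted p = 0.165). Hsp90b1, Dnajb11 and Dnajc3 differed by at most 0.18 in size in any comparison. Of 21 further genes of ER folding and the unfolded protein response, 1 was called in Falcor-/- against wild type, beside 9.47% of all genes. It was Atf4, the transcription factor of the integrated stress response, which was higher (0.27). In the double heterozygote 1 was called, Syvn1, an ER ubiquitin ligase, which was lower (-0.20), beside 14.8% of all genes. Against Foxa2+/- 4 of the 21 were lower in Falcor-/-, beside 8.1% of all genes. Among the 4 were Ern1 (-0.58), the sensor Ire1, Eif2ak3 (-0.26), the sensor Perk, and Edem1 (-0.31). Hyou1, an ER exchange factor for Hspa5, and Xbp1, the transcription factor spliced by Ire1, passed in no comparison, and Atf4 (-0.37) and Ddit3 (-0.51), a transcription factor downstream of Atf4, were lower in the double heterozygote than in Falcor-/-. When 1 library was left out, the Atf4 call against wild type was lost in 8 of 10 runs, Syvn1 in 7 of 9, Ern1 in 6 of 9, Eif2ak3 in 7 of 9, Edem1 in 1 of 9, and against Falcor-/- Atf4 in 3 of 9 and Ddit3 in 6 of 9.

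Against wild type 2 of 10 mitochondrial members were called higher in the double heterozygote (Hspa9 and Dnajc30), beside 7.21% of all genes, and 1 of 10 in Falcor-/- (Dnajc30), beside 5.23%. With 10 members these counts lie near the shares of all genes. The median differences over the 10 were 0.14 and 0.15 beside 0.07 and 0.03 over all genes. Hspa9, the mitochondrial Hsp70 that pulls proteins through the import channel, stood at 13.72, 13.58, 13.62, 13.61 and 13.72 in wild type and at 13.89, 13.93, 13.88 and 13.82 in the double heterozygote. The groups did not overlap, and the rise of 0.23 ± 0.06, or 1.18-fold, passed (limma adjusted p = 0.0102, exact permutation p = 0.00794, the smallest this design can give). It passed in every run that left out 1 library.

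Dnajc30, which supports respiratory complex I, stood at 9.24, 9.53, 9.21, 9.43 and 9.56 in wild type and at 10.05, 9.95, 9.81 and 9.68 in the double heterozygote. In Falcor-/- it stood at 9.67, 9.65, 10.02, 10.09 and 9.65. Neither group overlapped with wild type, and the differences were 0.48 ± 0.12 (limma adjusted p = 0.0145) in the double heterozygote and 0.42 ± 0.12 (adjusted p = 0.034) in Falcor-/-, both with an exact permutation p of 0.00794. The first was lost without double-heterozygous replicate 15 (0.42, adjusted p = 0.0587). The second was lost without any 1 of wild-type replicates 1 to 4 or Falcor-/- replicates 8 and 9 (0.36 to 0.46, adjusted p up to 0.0916) and with only these 2 genotypes in the fit (0.079). Dnajc30 shares 26.2% of its exon bases with Bud23 on the other strand, whether counting used strand is not given in the sources used here, and Bud23 differed by 0.04 and 0.11, without a call.

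Hspd1, the mitochondrial chaperonin, and Hspe1, its partner, share a promoter region and 112 exon bases on opposite strands. Hspe1 was 0.41 ± 0.15 higher in Falcor-/- than in wild type without passing (adjusted p = 0.0761), and Hspd1 differed by 0.06 ± 0.11. Without Falcor-/- replicate 7 Hspe1 was 0.51 higher and passed (adjusted p = 0.0223). Dnajc15, which works in the import motor, ran from 10.79 to 11.02 in wild type and from 10.63 to 11.48 in Falcor-/-, a difference of 0.26 that did not pass (adjusted p = 0.188). Of 10 other genes of mitochondrial folding, Trap1, the mitochondrial Hsp90, was higher in Falcor-/- (0.27) and in the double heterozygote (0.32), and Pam16 of the import motor was higher in Falcor-/- (0.42). The calls in Falcor-/- were lost in 5 of 10 omissions for Trap1 and 7 of 10 for Pam16, and the Trap1 call in the double heterozygote in 0 of 9.

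Hspa12b, a distant Hsp70 relative known from endothelium, had the largest difference of any member. It stood at 11.71, 11.77, 10.58, 11.33 and 11.86 in wild type, at 10.71, 10.43, 10.01, 10.23 and 11.81 in Falcor-/-, at 9.16, 9.74, 9.34 and 8.91 in Foxa2+/- and at 8.75, 8.66, 8.61 and 9.06 in the double heterozygote. Every Foxa2+/- and double-heterozygous library was below every library of the other 2 genotypes, while wild-type replicate 3 was low and Falcor-/- replicate 10 high for their groups. Hspa12b was at 22.3% of wild type in Foxa2+/- (-2.16 ± 0.31, limma adjusted p = 0.000738) and at 15.6% in the double heterozygote (-2.68 ± 0.31, adjusted p = 5.2e-05), each with an exact permutation p of 0.00794. Falcor-/- exceeded Foxa2+/- by 1.35 ± 0.31 (adjusted p = 0.0124) and it differed by -1.87 ± 0.31 between the double heterozygote and Falcor-/- (adjusted p = 0.00389), and none of these 4 calls was lost when 1 library was left out. In Falcor-/- it was 0.81 lower than wild type, which passed only without wild-type replicate 3 (-1.03, adjusted p = 0.0336) or Falcor-/- replicate 10 (-1.10, adjusted p = 0.0177).

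Endothelial markers moved with Hspa12b. Of 18 listed, 15 were called lower than wild type in Foxa2+/- and 16 in the double heterozygote, with median differences of -2.16 and -2.55. In Falcor-/- 1 was called lower. Of all genes 4.15%, 7.57% and 4.24% were called lower in the same comparisons, in that order. Wild-type replicate 3 (11.68) had the lowest and Falcor-/- replicate 10 (13.06) the highest mean of these markers in its group, the same libraries that stood out for Hspa12b. Mesenchymal markers were called lower in 7 of 12 cases in Foxa2+/- and 10 of 12 in the double heterozygote, beside the same shares. Alveolar type 1 markers were called lower in 7 of 9 cases in both genotypes. The part of these cells in the Hspa12b result was not tested. Hspa12a, the related gene, was called in no comparison, and neither was Hspb6, a small heat shock protein of muscle, which differed by 0.53 in Falcor-/- and 0.56 in the double heterozygote from wild type (adjusted p = 0.123 and 0.135). Without Falcor-/- replicate 7 the first was 0.67 and passed (adjusted p = 0.0406).

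Of the 8 constitutive cytosolic members, Hspa2 alone was called. It was called against Foxa2+/- in Falcor-/- (beside 16.7% of all genes) and in the double heterozygote (2.43%). Hsp90ab1, the constitutive Hsp90, ran from 16.43 to 16.95 over the 18 libraries and differed by at most 0.22 in size between genotypes, with no call. Hspa2, an Hsp70 best known from spermatocytes, had its lowest mean in Foxa2+/-. It stood at 12.73, 12.53, 12.13 and 12.41 there, at 12.93, 12.69, 13.12, 12.86 and 13.17 in wild type, at 13.98, 13.02, 13.45, 13.47 and 13.28 in Falcor-/- and at 13.39, 13.45, 12.99 and 13.15 in the double heterozygote. Foxa2+/- did not overlap with Falcor-/- or the double heterozygote and overlapped with wild type through replicate 11. Hspa2 was 0.99 ± 0.16 higher in Falcor-/- than in Foxa2+/- (limma adjusted p = 0.00263, exact permutation p = 0.00794) and 0.79 ± 0.17 higher in the double heterozygote than in Foxa2+/- (adjusted p = 0.0252, exact permutation p = 0.0286, the smallest possible). The second call was lost without Foxa2+/- replicate 13 or 14 or double-heterozygous replicate 15 or 16 (0.69 to 0.78, adjusted p up to 0.102). Against wild type the Foxa2+/- difference of -0.50 did not pass, except with only these 2 genotypes in the fit (adjusted p = 0.0479) or with library weights (-0.45, adjusted p = 0.0359). The Falcor-/- difference from wild type, 0.48, did not pass either (adjusted p = 0.0547), except without Falcor-/- replicate 7 (0.59, adjusted p = 0.015), without wild-type replicate 5 (0.54, adjusted p = 0.0489) or with library weights (0.57, adjusted p = 0.0184).

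Dnajc22, whose fly relative acts in endocytosis, also separated Falcor-/- from Foxa2+/-. It stood at 6.90, 6.25, 7.36, 7.01 and 6.66 in Falcor-/- and at 5.02, 5.08, 5.91 and 5.71 in Foxa2+/-, a difference of 1.41 ± 0.27, or 2.65-fold, with no overlap (limma adjusted p = 0.00609, exact permutation p = 0.00794). Wild type (6.11, 6.72, 6.11, 6.13 and 6.23) and the double heterozygote (6.54, 6.65, 5.91 and 5.81) had means between them, and no comparison with wild type passed. Against wild type Falcor-/- passed without Falcor-/- replicate 7 (0.72, adjusted p = 0.0494) and Foxa2+/- with library weights (-0.88, adjusted p = 0.0186). Dnajc22 had a mean of 6.23 over the 18 libraries, just above the minimum of 6, and read depth is unknown, so its fold difference is uncertain.

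Dnajb3, a DnaJ protein of male germ cells, was the member that rose most in Foxa2+/-. It stood at 6.99, 7.39, 7.50, 7.08 and 7.56 in wild type, at 7.79, 7.63, 8.24, 7.75 and 7.43 in Falcor-/-, at 8.48, 8.51, 8.28 and 8.64 in Foxa2+/- and at 8.39, 7.87, 7.94 and 8.05 in the double heterozygote. Foxa2+/- and the double heterozygote were each above all wild-type libraries, by 1.18 ± 0.18 (limma adjusted p = 0.000807) and 0.76 ± 0.18 (adjusted p = 0.00885). Falcor-/- was 0.71 ± 0.18 below Foxa2+/- (adjusted p = 0.0164), and none of the 3 calls was lost when 1 library was left out. The gene lies inside the span of Ugt1a6a, Ugt1a6b and Ugt1a7c on the other strand, without shared exon bases in the annotation used here. Reads from their introns there could not be told apart from reads of Dnajb3 without strand. Ugt1a6a was 0.33 higher in Foxa2+/- (adjusted p = 0.335) and 0.58 higher in the double heterozygote (adjusted p = 0.039) than in wild type, and 0.54 lower in Falcor-/- than in Foxa2+/- (adjusted p = 0.048). Its part in the Dnajb3 result was not tested.

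**Figure D5:**
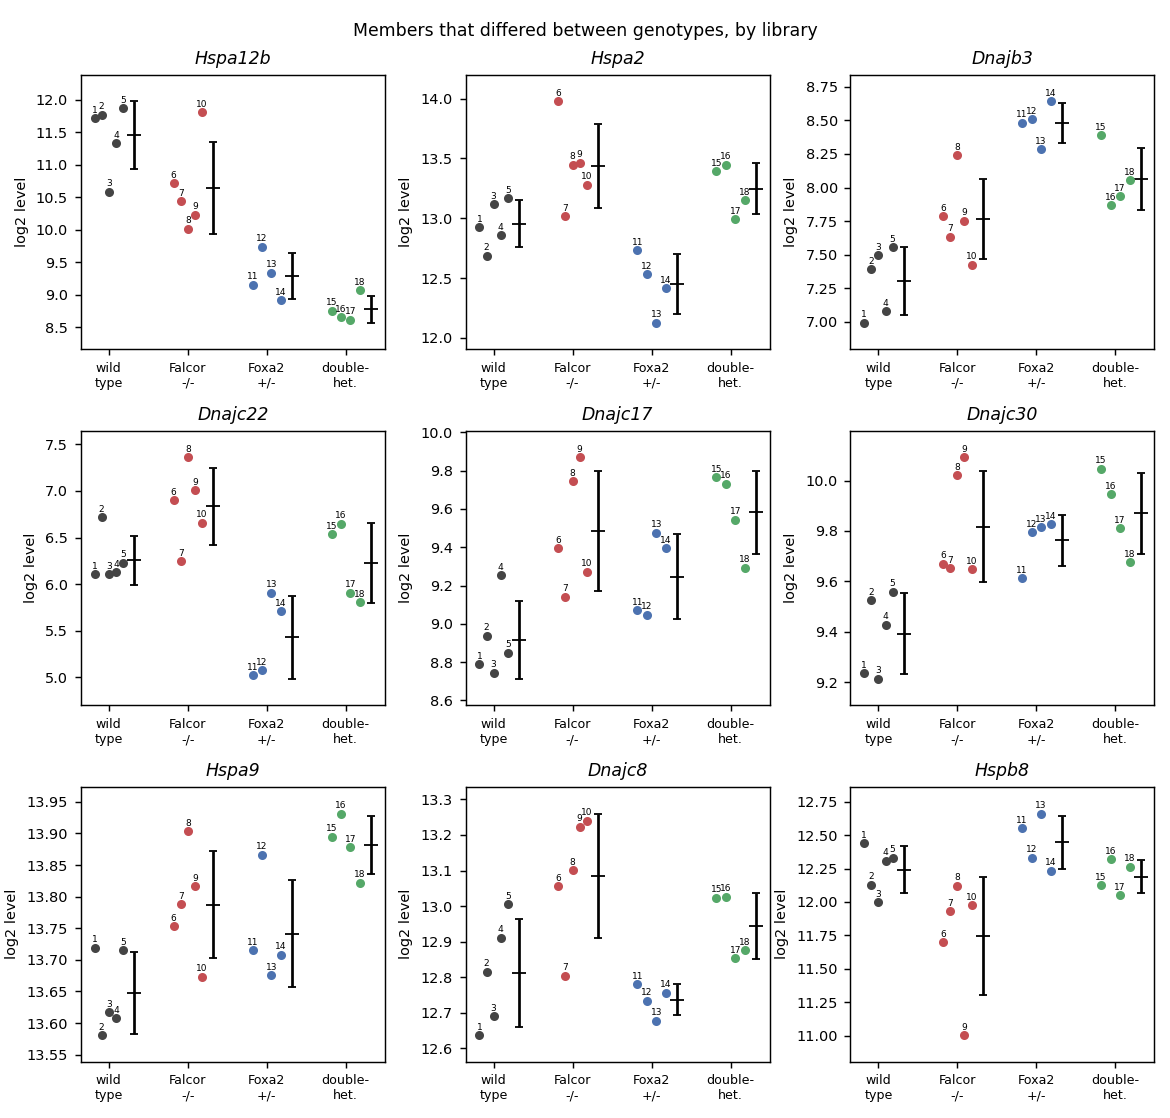
Log2 level (y axis) of 9 members called in at least 1 comparison, in each library by genotype (x axis); points carry replicate numbers, and bars are the mean ± SD of the genotype. Hspa12b separates Foxa2+/- and double-heterozygous libraries from all others, while Dnajc17 in Falcor-/- and Dnajc8 overlap with wild type.

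Of the 7 nuclear, ribosome-bound and specialised DnaJ proteins, 2 were called higher in Falcor-/- than in wild type (Dnajc17 and Dnajc8), where 5.23% of all genes were called higher. All 7 differences were positive, with a median of 0.16 beside 0.03 over all genes, and both calls depended on single libraries. Dnajc17, a spliceosome-associated protein, stood at 8.79, 8.94, 8.74, 9.25 and 8.85 in wild type, at 9.40, 9.14, 9.74, 9.87 and 9.27 in Falcor-/- and at 9.77, 9.73, 9.54 and 9.29 in the double heterozygote. Falcor-/- overlapped with wild type through wild-type replicate 4 and the double heterozygote did not. Dnajc17 was 0.57 ± 0.16 higher in Falcor-/- (limma adjusted p = 0.0345, exact permutation p = 0.0159) and 0.67 ± 0.16 higher in the double heterozygote (adjusted p = 0.0117, exact permutation p = 0.0159). The first call was lost without any 1 of wild-type replicates 1, 2 and 3 or Falcor-/- replicates 6, 8 and 9 (0.47 to 0.59, adjusted p up to 0.0881) and with only these 2 genotypes in the fit (0.0722), and the second in no such omission. Dnajc17 shares 8.26% of its exon bases with Zfyve19 on the other strand, which was not called.

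Dnajc8, another splicing factor, was 0.27 ± 0.08 higher in Falcor-/- than in wild type (limma adjusted p = 0.0491) and 0.35 ± 0.09 higher than in Foxa2+/- (adjusted p = 0.0177). Its libraries were 13.06, 12.80, 13.10, 13.22 and 13.24 in Falcor-/- and 12.78, 12.73, 12.68 and 12.76 in Foxa2+/-, so these did not overlap. The call against wild type was lost in 8 of 10 omissions, all but wild-type replicate 5 and Falcor-/- replicate 7 (0.23 to 0.30, adjusted p up to 0.125), and that against Foxa2+/- without Foxa2+/- replicate 13 (0.33, adjusted p = 0.0632). Dnajc2, which sits on ribosomes, exceeded its Foxa2+/- level in Falcor-/- by 0.33 ± 0.09 (adjusted p = 0.0273) and Dnajc12, a partner of aromatic amino acid hydroxylases, by 0.41 ± 0.12 (adjusted p = 0.0325). Neither gene's groups overlapped, and the calls were lost in 5 and 6 of 9 omissions (adjusted p up to 0.0729 and 0.0931).

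Hspb11, which despite its symbol is a subunit of the intraflagellar transport machinery of cilia, was 0.37 ± 0.11 higher in Falcor-/- than in wild type (limma adjusted p = 0.047) and 0.35 ± 0.12 higher than in Foxa2+/- (adjusted p = 0.0497). The calls were lost in 8 of 10 and 8 of 9 omissions (adjusted p up to 0.113 and 0.122). Dnajb13, a radial spoke protein of cilia, was 0.37 ± 0.10 lower in the double heterozygote than in Falcor-/- (adjusted p = 0.0435, exact permutation p = 0.0159), with 11.44, 11.48, 11.27 and 11.27 against 11.95, 11.51, 11.63, 11.84 and 11.76. That call was lost in 7 of 9 omissions (adjusted p up to 0.138), without the intensity trend (0.0523) and with only these genotypes in the fit (0.103). Dnajb13 shares 11.2% of its exon bases with Ucp2 on the other strand, and the part of Ucp2 was not tested. Of 14 ciliated cell markers, 2 were called higher in Falcor-/- than in wild type, beside 5.23% of all genes. Of the 14 differences there, 4 were negative. In Falcor-/- 7 were called higher than in Foxa2+/-, beside 8.56%. In the double heterozygote 1 was called lower than in Falcor-/-, beside 3.0%. The part of ciliated cells in these results was not tested.

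Among 5 regulators of the heat shock response, Hsf1 itself differed by at most 0.08 in size in any comparison. Hsf4, a relative best known from the lens, stood at 10.50, 10.65, 10.57, 10.19 and 10.41 in wild type, at 10.92, 11.17, 11.43, 10.77 and 10.86 in Falcor-/- and at 11.60, 11.48, 11.11 and 11.21 in the double heterozygote. Neither group overlapped with wild type, and Hsf4 was 0.57 ± 0.13 (limma adjusted p = 0.0192) and 0.89 ± 0.14 (adjusted p = 0.00034) higher. In Foxa2+/- it was 0.46 ± 0.14 higher without passing (adjusted p = 0.0564).

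Of 22 cytosolic partners of Hsp70 and Hsp90, 1 was higher and 2 were lower in the double heterozygote than in wild type. That is 13.6%, beside 14.8% of all genes. None was called in Falcor-/- (4 at an unadjusted p under 0.05) or Foxa2+/- (5), beside 9.47% and 6.11% of all genes. Bag3, the Hsp70 partner that joins Hspb8, stood at 11.82, 11.91, 11.95 and 11.88 in the double heterozygote and at 12.62, 12.19, 12.40, 12.26 and 12.41 in wild type. It was below every library of the other 3 genotypes there, by 0.49 ± 0.10 against wild type (limma adjusted p = 0.00335). Fkbp5, an Hsp90 partner induced by glucocorticoids, was 1.24 ± 0.22 lower in the double heterozygote than in wild type (adjusted p = 0.00114), and Bag2 was 0.37 higher. Among omissions the Bag3 and Fkbp5 calls against wild type were lost in 0 of 9 and the Bag2 call in 7 of 9. Immediate early genes were called lower in the same genotype in 3 of 18 cases against wild type, beside 7.57% of all genes. These were Klf4 (-0.62, lost in 0 of 9 omissions), Dusp1 (-0.52, lost in 5) and Jun (-0.32, lost in 6). Against Falcor-/- 7 of 18 were called lower, among them Fos (-0.53), beside 3.0% of all genes. Atf3 differed by -0.70 there and did not pass (adjusted p = 0.0616). Of the 18, 5 were higher in the double heterozygote than in wild type, by up to 0.94, without a call. In Falcor-/- all 18 were above wild type (median 0.28 beside 0.03 over all genes), and 2 were called. Those were Ier2 (0.41) and Jund (0.31), beside 5.23% of all genes, each lost in 8 of 10 omissions. In Foxa2+/- 17 of 18 were above wild type (median 0.24 beside 0.04), with no call.

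Of 14 genes of the cytosolic chaperonin and prefoldin, folding machines for actin and tubulin, 1 was called in Falcor-/- against wild type (Pfdn5, 0.45), a share near that of all genes. That call was lost in 4 of 10 omissions (wild-type replicates 1 and 2, Falcor-/- replicates 8 and 9). All 14 differences were positive, with a median of 0.19 beside 0.03 over all genes. Against Foxa2+/- all 14 were positive again, with a median of 0.26 beside 0.00. Of the 14, 5 were called, where 8.56% of all genes were called higher. Among the 5 were Cct7 (0.35) and Cct4 (0.31), lost in 4 and 1 of 9 omissions.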

How the data were processed

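RNA-seq libraries of EpCAM-sorted lung cells were aligned with STAR to mm9 and processed with limma, per the submitters' processing notes; versions, the gene counter, its annotation and strand setting are not named there. The deposited files hold log2 levels per gene, which the authors made before deposit; every library has nearly the same value at each rank, as quantile normalisation gives (library medians 11.03). Read depth is therefore unknown, and no counting interval was computed.

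Symbols came from GENCODE M21, and promoters from RefSeq (GRCm38.p6), neither used for the files' own coordinates. Genes with a mean of at least 6 were fitted with limma 3.58.1 in R 4.3.3 (4 genotype means, trended variance, all 18 libraries, 14 residual degrees of freedom), and p-values were adjusted over 15249 genes by Benjamini-Hochberg; 295 genes fell below the minimum. SE is limma's, and intervals are 95%. Single genes also had a 2-sided exact permutation test over libraries, and co-variation 100000 permutations within genotype. The fit was tested on simulated data with normal noise, independent between genes, and few genes shifted. Of genes shifted by 1 log2 unit, 85.1% were called in Falcor-/- against wild type, 82.1% in Foxa2+/- and 70.1% in the double heterozygote. Of those shifted by 0.5, 46.3%, 41.8% and 40.3% were called. In the real data single libraries moved the share of all genes called, so these rates need not hold there.

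Named members were a chosen set of chaperones, every called member (at most 15 a comparison), and the 6 with the widest range and the 6 with the highest mean; at most 3 called genes were named per related list, with a few regulators. Hspa13, Hspa12a and Hspa4 were named after their values were seen. Members and lists were chosen with earlier results of these data known. Alternatives were no filter, a minimum of 8, no variance trend, library weights, subtracted medians, the compared genotypes alone, and each library left out.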

Additional observations from a re-analysis of the deposited data

Results flagged for a closer look

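Among 31 named members in 4 genotypes, 124 groups were checked for a library far from the rest of its group by Dixon's test, and 5 had one; chance flags about 1 in 20 groups. Hsp90b1 stood at 15.16 in wild-type replicate 3, below the other wild-type libraries at 15.31 to 15.37. In double-heterozygous replicate 15 Hsp90b1 stood at 15.34, above the others at 15.18 to 15.19. Dnajc3 stood at 14.25 in Foxa2+/- replicate 11, above the others at 14.03 to 14.05, and Dnajc30 at 9.61 in the same library, below the others at 9.79 to 9.83. Dnajc22 stood at 6.72 in wild-type replicate 2, above the others at 6.11 to 6.23.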

How the results depend on the processing

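The number of members called depended on the fit. With library weights 11 were called in Falcor-/- against wild type, beside 22.6% of all genes. The counts were 7 in Foxa2+/- (12.8% of all genes) and 12 in the double heterozygote (32.4%) against wild type. Against Foxa2+/- they were 19 in Falcor-/- (31.2%) and 9 in the double heterozygote (13.9%). Fitting only the compared genotypes gave 0 in Falcor-/- (3.17% of all genes) and 4 in Foxa2+/- (7.49%) against wild type. It gave 1 in the double heterozygote against Falcor-/- (2.24%), which also gave 1 with no variance trend (4.65%). A minimum mean of 8 gave 1 in Foxa2+/- against wild type (5.76% of all genes), because Dnajb3 lies under it. That minimum gave 7 in Falcor-/- against Foxa2+/- (18.2%), because Dnajb3 and Dnajc22 lie under it. Leaving out single libraries gave 0 to 19 in Falcor-/- against wild type (2.32% to 25.7% of all genes). In Falcor-/- against Foxa2+/- it gave 4 without Foxa2+/- replicate 13 (5.01%) to 18 without Falcor-/- replicate 7 (31.1%). The double heterozygote gave 0 to 1 against Foxa2+/- (0.59% to 2.5%) and 1 to 5 against Falcor-/- (2.7% to 8.09%). Partners past the threshold with Dnajb1 numbered 1 without the 2 farthest libraries, 11 on raw values and 3 to 9 (without Falcor-/- replicate 9) over single omissions. The 11 on raw values included the immediate early genes Btg2, Ier2, Ier3, Jun and Junb. Over 114 gene and comparison values rerun, 1417 alternatives kept direction and call, 262 lost a call, 29 gained one and 0 reversed. Apart from Dnajb3 and Dnajc22 under the minimum of 8, the cause of these changes was not tested. No paired analysis was possible because replicate numbers 1 to 18 are not shared between genotypes. Unknown depth limits what can be said of low genes such as Dnajc22.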

Other observations

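The mean level of 5 lists was highest in the same 4 libraries, Falcor-/- replicates 8 and 9 and double-heterozygous replicates 15 and 16: mitochondrial members, mitochondrial partners, nuclear and ribosome-bound DnaJ proteins, chaperonin and prefoldin, and epithelial genes. The mean over the 10 mitochondrial members was 11.77 in Falcor-/- replicate 8 and 11.67 in replicate 9, and 11.68 and 11.67 in double-heterozygous replicates 15 and 16. The mean over the 14 chaperonin and prefoldin genes was 12.98 in both Falcor-/- libraries and 12.87 and 12.93 in the double-heterozygous ones. Cryaa, a lens small heat shock protein whose symbol falls outside the member rule, was 1.22 higher in Falcor-/- than in Foxa2+/- (limma adjusted p = 0.0117).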
